A study of Homo sapiens with 16 samples.

Results

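SKBR3 cells given MitoQ were compared with SKBR3 controls, 3 libraries against 3, over all genes of the deposited RNA sequencing table. The libraries were chosen by the cell line and treatment in their labels, and are 6 of the 16 libraries of a search for markers of response to MitoQ, whose other 10 come from the line MDA-MB-231. SKBR3 is a human breast adenocarcinoma line from a pleural effusion, known for its amplified ERBB2 (HER2) gene. MitoQ is a ubiquinone attached to a lipophilic cation that carries it into mitochondria. The treated SKBR3 cells received 500 nM MitoQ for 48 h, and all 6 SKBR3 libraries were labelled passage 10. Cells of both groups grew in DMEM with 4.5 g/L glucose and GlutaMax and 10% serum. What the control cells received, and whether replicates were separate cultures, is unstated in the labels, so the p-values measure the spread between these libraries, which may be technical. Each arm is 1 line at 1 dose and 1 time.

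The values are estimated counts per gene, given here as CPM (counts scaled to a common library size), which compare libraries and not genes of different length. A change is the log2 fold change, MitoQ minus control, ± its SE, from the quasi-likelihood test of edgeR with Benjamini-Hochberg adjustment over the 15026 genes tested and a threshold of 0.05. Genes are said to have risen or fallen only where they passed it. Totals were 14723152 to 27841144 counts per library, and a count of 0 in a library allowed a level of up to 0.108 to 0.204 CPM, for counting error only. ERBB2 lay between 5006 and 5825 CPM in every one of the 6 libraries, as the label asks, although the column names carry part of the other line's name. VIM, the vimentin gene, had 37 counts over the 6 libraries. In RNA from bulk cultures, fewer cells of a kind and less RNA per cell cannot be told apart.

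Mitochondria that fail to make ATP, import proteins or translate their own mRNAs signal to the nucleus through kinases of the translation factor eIF2, and so do amino acid shortage and heme loss. Phosphorylated eIF2 lowers protein synthesis as a whole and favours translation of ATF4, a transcription factor that acts with partners of the C/EBP family. Its targets, the integrated stress response, code for amino acid transporters, tRNA synthetases, the enzymes of serine, glycine and asparagine synthesis, and for regulators that close the loop. The element that ATF4 and C/EBP proteins bind together reads TGATGNAA on either strand, N being any base.

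That element was looked for in the RefSeq promoters (GRCh38.p14, 250 bases before to 50 after each start) of 6 gene lists: the stress response, serine and one-carbon enzymes, transsulfuration and glutathione, amino acid transporters, tRNA synthetases, and asparagine, proline, arginine and alanine synthesis. Of their 121 tested members 89 matched a promoter. The letters stood in 13 of the 34 members that rose (38.2%), in 1 of the 9 that fell (11.1%) and in 6 of the 46 that did not pass the test (13%). Over all genes with a promoter in that table the share was 4.46%, 1217 of 27305. The lists were compiled with the known targets of ATF4 in mind, so the share is a description and not a test. The windows of 8 members that rose are shown as examples of the match, each read along the strand of its gene with the matching letters in capitals. All of them except IARS are described further below.
ASNS (chr7:97872447-97872498, minus strand): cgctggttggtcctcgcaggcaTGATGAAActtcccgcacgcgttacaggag
ATF3 (chr1:212565194-212565245, plus strand): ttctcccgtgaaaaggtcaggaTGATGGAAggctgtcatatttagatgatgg
CEBPG (chr19:33374049-33374100, plus strand): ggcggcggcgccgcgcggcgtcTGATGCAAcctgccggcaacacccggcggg
JDP2 (chr14:75427984-75428021, plus strand): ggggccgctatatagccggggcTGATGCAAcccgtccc
MTHFD1L (chr6:150866335-150866386, plus strand): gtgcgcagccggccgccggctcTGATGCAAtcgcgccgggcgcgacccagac
CHAC1 (chr15:40953240-40953291, plus strand): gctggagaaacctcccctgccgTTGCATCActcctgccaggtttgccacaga
AARS (chr16:70289664-70289715, minus strand): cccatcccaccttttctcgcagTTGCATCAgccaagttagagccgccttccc
IARS (chr9:92293698-92293732, minus strand): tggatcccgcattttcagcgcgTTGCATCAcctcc
In CHAC1, AARS and IARS the element lies on the strand opposite to the gene, so the capitals show its reverse complement. The matches shown lie from 13 bases (IARS) to 209 bases (CHAC1) before the start. Only matches wholly before the start were shown. The 13 rising members with the letters also include CARS, SLC1A4, SLC3A2, SLC7A1 and TARS, whose matches reach past the start.

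MitoQ and control libraries differed in 4202 of the 15026 tested genes, 28%: 13.8% of tested genes rose (2076) and 14.1% fell (2126). Changes were small: 3721 of the called genes, 88.6%, moved by less than 1.5-fold, and the median called change was 1.198-fold. Leaving out each library in turn kept 2249 of the calls in all 6 fits, 1269 higher and 980 lower. Without MitoQ 2 the test called 2565 genes, 1458 higher and 1107 lower, and without control 2 it called 1383 lower. Groups that do not overlap were seen in 3020 genes with higher and 3286 with lower MitoQ libraries, of the 15026 tested. Lack of overlap is thus common, and where it is given for single genes below it describes them and is no separate test.

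The change of a gene in SKBR3 moved with the share of G and C bases in its transcript. Over 10391 protein-coding genes averaging 5 CPM or more and with a GC value, split in quintiles by GC content, the median change went from -0.13 in the quintile with the lowest GC content (median 38.6% GC) over -0.08, -0.03 and 0.04 to 0.16 in the highest (61.7% GC). In the lowest quintile 67 genes rose and 825 fell, and in the highest 850 rose and 57 fell. In MDA-MB-231 the medians of the same quintiles lay between -0.03 and 0.01. Each library has such a tilt, the median log2 deviation from the gene's mean in the highest quintile minus that in the lowest: -0.20, -0.22 and -0.03 in SKBR3 controls 1 to 3, and 0.10, 0.16 and 0.19 in SKBR3 MitoQ libraries 1 to 3. In MDA-MB-231 the tilts ran from -0.11 to 0.10 in controls and from -0.19 to 0.26 in MitoQ libraries. Tilts of this size thus also occurred between libraries of the same treatment there, and the groups overlapped. Whether treatment or library preparation goes with the tilt in SKBR3 cannot be told apart, since it separates the SKBR3 groups. Counts are therefore given also from a fit with offsets that remove the GC trend of each library, chosen after the data were seen. It called 3327 genes, 12% higher (1802) and 10.1% lower (1525), and 2500 of them were also called without the offsets. Of the 2249 calls kept in all 6 fits, 1766 were called with the offsets too, 1018 higher and 748 lower.

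Control 3 stood between the groups. On the first principal component, which held 40.4% of the variance, controls 1 to 3 lay at -24.6, -23.6 and -7.24 and MitoQ libraries 1 to 3 at 15.9, 18.4 and 21.2. After removal of the GC trend the order stayed, with -23.3, -20.5 and -7.91 against 15.9, 17.0 and 18.8. The root mean square log2 distance of control 3 was 0.345 to control 1 and 0.355 to control 2, no larger than the 0.372 between those 2. The distances of control 3 to MitoQ libraries 1 to 3 were 0.373, 0.345 and 0.369, whereas controls 1 and 2 lay at 0.424 to 0.456 from them. All these distances include counting error, which depends on depth. Controls 1 to 3 had 18646289, 14723152 and 27841144 counts, so the distances alone do not say how far control 3 stood from its group. In 3059 of the 4202 called genes, 72.8%, control 3 lay on the MitoQ side of the mean of controls 1 and 2. Both sides are measured from that same mean, which alone makes them agree often. The share over all tested genes was not computed, so this count does not place control 3. Quality weights from limma voom were 0.912, 1.15 and 0.601 for controls 1 to 3, and 1.023, 1.82 and 0.853 for MitoQ libraries 1 to 3, so control 3 had the lowest. Without it 4547 genes were called, 2576 higher and 1971 lower, and 3694 of them were also called with it.

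**Figure D1:**
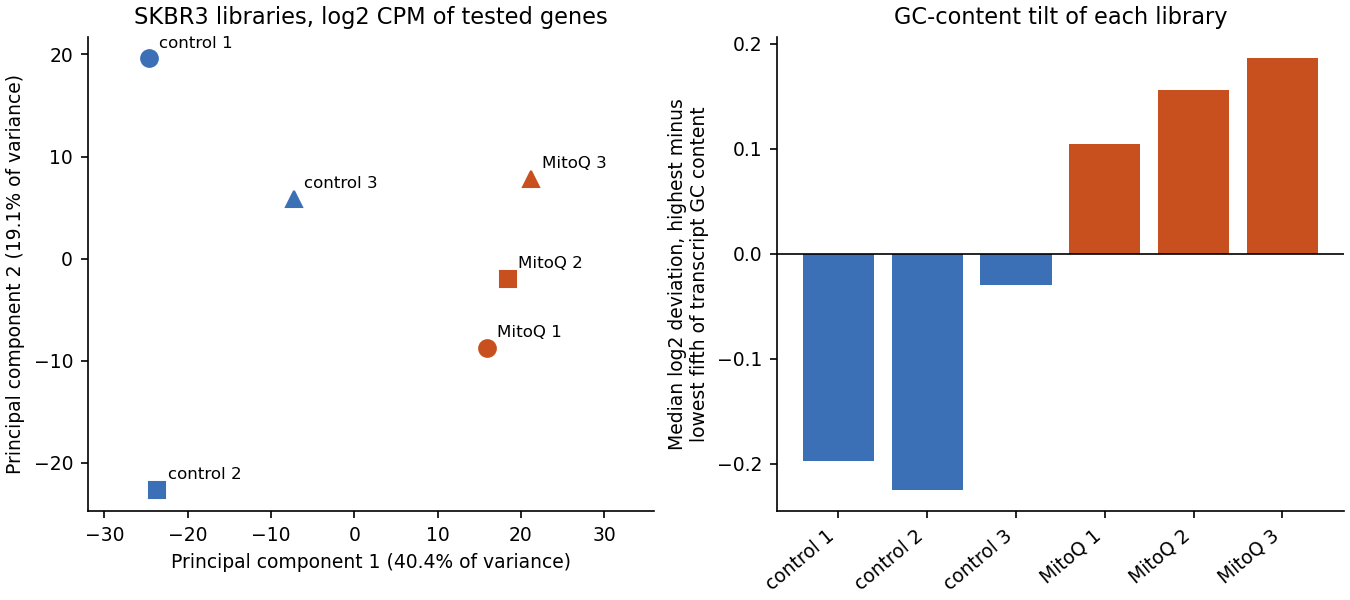
Left, the 6 SKBR3 libraries on the first 2 principal components of log2 CPM, with the share of variance on each axis; right, the GC tilt of each library as bars, the median log2 deviation of genes in the highest GC quintile minus that in the lowest. Control 3 lies between the groups in both, at -7.24 on the first component and a tilt of -0.03.

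The genes by which control 3 stood farthest from controls 1 and 2 were mostly features that varied across all 6 libraries. VPS52, which codes for a subunit of a Golgi tethering complex, had 0.164, 1.08 and 21.3 CPM in controls 1 to 3 and 0.872, 7.89 and 1.74 CPM in MitoQ libraries 1 to 3. FRG1, named for a muscular dystrophy region, had 7.59, 6.56 and 1.47 CPM and 6.83, 3.12 and 6.32 CPM. Control 3 was the highest of the 6 libraries for VPS52 and the lowest for FRG1. SYNRG, the gamma-synergin gene, had 7.59, 0.338 and 13.4 CPM and 7.36, 6.06 and 12.01 CPM, and there control 2 was the low library. AC116533.1, HIST2H2AA3, ISY1-RAB43 and SMG1P4, which stood apart by the same rule, share 100%, 100%, 99.4% and 95.5% of their 31-base stretches with transcripts of other genes, so their counts can be split between copies. LY6E, with 0.0546, 13.7 and 9.88 CPM in the controls, and FAM220A, with 16.5, 4.19 and 18.2 CPM, were named by the rule because control 1 or control 2 was low. RNA5-8SP6, MTRNR2L12 and RING1 were lower in control 3 than the mean of the others.

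Genes of the integrated stress response rose in SKBR3. Of 22 tested members 18 rose and 0 fell, with a median change of 0.42 against -0.000642 over all tested genes; with GC offsets 15 rose and the median was 0.35, and with any 1 library left out 16 to 19 rose. Median GC content of the list was 56.0%. INHBE, STC2, FGF21 and SIRT4 were too low in SKBR3 to be tested. CHAC1 (ENSG00000128965, chr15:40952962-40956519), which cleaves glutathione, had 1.53, 2.37 and 1.65 CPM in controls 1 to 3 and 6.15, 8.97 and 9.06 CPM in MitoQ libraries 1 to 3, a change of 2.16 ± 0.20, adjusted p = 6.58e-06. Every MitoQ library lay above every control. ADM2 (adrenomedullin 2, ENSG00000128165, chr22:50481556-50486440) had 5.30, 7.17 and 6.61 CPM and 13.8, 20.1 and 19.8 CPM, and its change was 1.499 and with GC offsets 1.32. GDF15 (ENSG00000130513, chr19:18374731-18389176), a cytokine released by stressed cells, had 1.69, 1.42 and 2.30 CPM and 3.83, 4.34 and 6.01 CPM (1.33 ± 0.21, adjusted p = 4.45e-04). These 3 genes are read at a few CPM, and their groups did not overlap.

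ASNS (ENSG00000070669, chr7:97852118-97872542) makes asparagine from aspartate, and had 43.8, 41.2 and 40.5 CPM in controls and 89.0, 94.4 and 97.4 CPM in MitoQ libraries (1.16 ± 0.05, adjusted p = 5.50e-09). Of its 31-base stretches 42.5% recur in transcripts of other genes. SESN2, sestrin 2, which restrains mTORC1, had 6.28, 6.02 and 7.18 CPM and 12.4, 14.2 and 14.6 CPM (1.07 ± 0.11, adjusted p = 1.07e-05). NUPR1, a small stress-induced chromatin regulator, had 23.4, 21.3 and 20.2 CPM and 34.6, 38.0 and 34.6 CPM (0.73 ± 0.07, adjusted p = 7.25e-06). Control and MitoQ libraries of all 3 genes stood apart. TRIB3, a pseudokinase that binds ATF4 and AKT, had 223, 243 and 274 CPM and 303, 309.9 and 325 CPM (0.34 ± 0.07, adjusted p = 0.00421), and 0.20 with GC offsets. DDIT4 (REDD1), another brake on mTORC1, had 87.9, 97.1 and 99.1 CPM and 119, 133 and 135 CPM (0.44 ± 0.06, adjusted p = 8.95e-05). Both rose in every MitoQ library by a fraction of their level.

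The transcription factors of the response rose by less than 1.5-fold where they passed the test. ATF3, a repressor among the first ATF4 targets, had 16.7, 16.5 and 16.9 CPM and 21.2, 24.5 and 22.8 CPM (0.45 ± 0.07, adjusted p = 4.38e-04). JDP2, its near relative, had 26.9, 27.8 and 33.2 CPM and 36.5, 40.5 and 42.2 CPM (0.43 ± 0.08, adjusted p = 0.00181). CEBPG, the C/EBP protein that pairs with ATF4, had 37.0, 37.9 and 38.5 CPM and 48.1, 51.3 and 52.7 CPM (0.42 ± 0.05, adjusted p = 7.08e-05). None of the 3 overlapped between groups. ATF4, which is controlled mainly at translation, had 201, 198 and 202 CPM and 211, 217 and 223 CPM (0.12 ± 0.04, adjusted p = 0.0279). That call was lost with GC offsets (adjusted p = 0.393) and without control 1 (adjusted p = 0.0602), control 2 (adjusted p = 0.0545), MitoQ 2 (adjusted p = 0.0689) or MitoQ 3 (adjusted p = 0.113). DDIT3 (CHOP) had 4.42, 4.80 and 3.99 CPM and 4.75, 6.42 and 6.32 CPM with overlapping groups (0.42 ± 0.15, adjusted p = 0.0463), and its call was lost without control 1 (adjusted p = 0.0911), control 2 (adjusted p = 0.0576), control 3 (adjusted p = 0.119), MitoQ 2 (adjusted p = 0.194) or MitoQ 3 (adjusted p = 0.137). Of ATF4's 31-base stretches 29.7% occur in other genes. ATF5 did not pass the test (-0.06 ± 0.07, adjusted p = 0.575). PPP1R15A (GADD34), which brings the phosphatase to eIF2, had 15.9, 14.5 and 15.9 CPM and 20.8, 20.6 and 21.4 CPM (0.43 ± 0.07, adjusted p = 5.54e-04). VEGFA, an angiogenic factor that ATF4 can drive, had 84.7, 88.7 and 91.5 CPM and 108, 111 and 112 CPM (0.32 ± 0.04, adjusted p = 9.91e-05). Among the kinases of eIF2 and their regulators 1 of 13 rose and 5 fell, 2 and 4 with GC offsets, with 3 falls without control 1 and 2 without MitoQ 2.

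**Figure D2:**
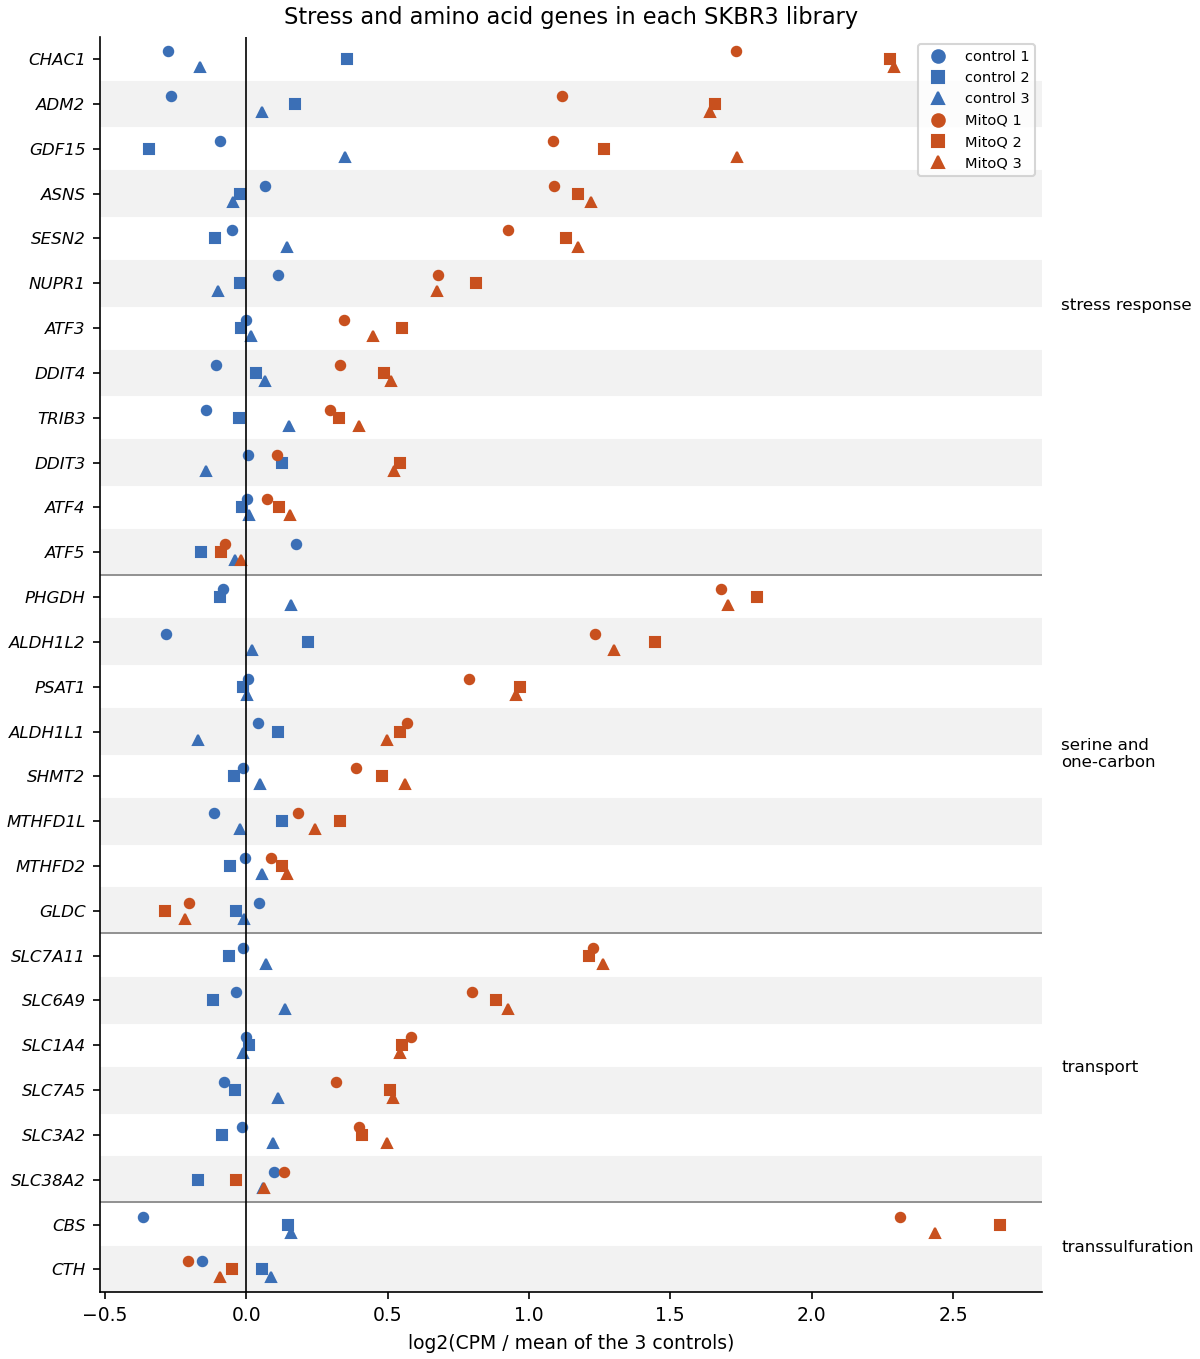
Log2 of CPM over the mean of the 3 controls, for each library (points; controls and MitoQ libraries in different colours), for 28 genes of the stress response, serine and one-carbon metabolism, amino acid transport and transsulfuration. The MitoQ points of CHAC1, PHGDH, SLC7A11 and CBS lie above 1 on this scale, while those of ATF5, GLDC and CTH lie near or below 0.

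Serine synthesis and one-carbon enzymes were split. Of 17 tested members 7 rose and 1 fell (median 0.10), also with GC offsets. Serine is made from a glycolytic intermediate by PHGDH, PSAT1 and PSPH, and its carbon then enters the folate cycle of mitochondria. PHGDH, the first of them, had 17.2, 17.0 and 20.3 CPM in controls and 58.2, 63.7 and 59.2 CPM in MitoQ libraries (1.72 ± 0.07, adjusted p = 4.51e-09). PSAT1, the second, had 50.7, 49.99 and 50.5 CPM and 87.1, 98.6 and 97.6 CPM (0.91 ± 0.05, adjusted p = 1.26e-07). PSPH, the last, had 17.0, 15.8 and 17.4 CPM and 19.1, 17.8 and 18.5 CPM and did not pass the test (0.13 ± 0.07, adjusted p = 0.199). The first steps of the pathway thus stood apart between groups, and the last had MitoQ values just above the controls. SHMT2, which makes glycine in mitochondria, had 105, 102 and 109 CPM and 138, 147 and 155 CPM (0.47 ± 0.05, adjusted p = 9.93e-06). ALDH1L2, which turns formyl-folate to CO2 in mitochondria, had 6.77, 9.61 and 8.37 CPM and 19.4, 22.5 and 20.3 CPM (1.34 ± 0.11, adjusted p = 2.14e-06). MTHFD1L, which releases formate to the cytosol, had 32.7, 38.6 and 34.9 CPM and 40.2, 44.6 and 41.9 CPM (0.26 ± 0.07, adjusted p = 0.00829). Mitochondrial folate genes thus rose by different amounts, and MTHFD2, the dehydrogenase of the same arm, by the least of those named (0.12 ± 0.04, adjusted p = 0.0356). The MTHFD2 call was lost without control 1 (adjusted p = 0.0842), control 2 (adjusted p = 0.0932), MitoQ 2 (adjusted p = 0.0893) or MitoQ 3 (adjusted p = 0.114), and that of MTHFD1L without MitoQ 2 (adjusted p = 0.055). GLDC, which breaks glycine down, had 90.0, 85.0 and 86.6 CPM and 75.8, 71.6 and 75.1 CPM and fell (-0.24 ± 0.04, adjusted p = 0.00123).

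Transsulfuration and glutathione genes rose in 8 of 26 tested members and fell in 4 (median 0.07); without MitoQ 2 the falls went to 1. CBS joins serine and homocysteine, and CTH then frees cysteine. CBS (ENSG00000160200, chr21:43053191-43076943) had 1.80, 2.57 and 2.59 CPM in controls and 11.5, 14.7 and 12.5 CPM in MitoQ libraries, the largest rise among named genes, with 56.3% of its 31-base stretches found in other genes as well. CBSL, which ranked next among the largest rises, shares 93.8% of its stretches with other genes, so counts of CBS and CBSL can be split between copies. CTH had 7.37, 8.52 and 8.73 CPM and 7.12, 7.93 and 7.69 CPM with overlapping groups (-0.12 ± 0.11, adjusted p = 0.486). The first step thus rose while the second did not pass the test. GGT5, which breaks down extracellular glutathione, had 8.95, 6.70 and 7.65 CPM and 13.03, 13.5 and 11.6 CPM (0.71 ± 0.11, adjusted p = 3.79e-04). GPX3, a secreted peroxidase, had 8.84, 6.97 and 6.86 CPM and 11.7, 10.7 and 13.6 CPM (0.66 ± 0.12, adjusted p = 0.0012). ETHE1, a mitochondrial enzyme of sulfide breakdown, had 17.96, 15.9 and 18.3 CPM and 22.5, 26.4 and 24.3 CPM (0.49 ± 0.08, adjusted p = 4.89e-04). GCLC (-0.08 ± 0.05, adjusted p = 0.208) and GCLM (0.04 ± 0.06, adjusted p = 0.601), the subunits of the enzyme that limits glutathione synthesis, did not pass the test. With GC offsets GCLM passed it (0.19, adjusted p = 0.0103).

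Amino acid transporter genes rose in 7 of 22 tested members and fell in 1 (median 0.15), 7 and 0 with GC offsets, with 7 or 8 rises whichever library was left out. SLC7A11, which imports cystine, had 9.88, 9.54 and 10.5 CPM in controls and 23.3, 23.1 and 23.9 CPM in MitoQ libraries. Its partner chain, SLC3A2, had 505, 482 and 546 CPM and 673, 679.6 and 721 CPM (0.43 ± 0.05, adjusted p = 1.87e-05). SLC7A5, which imports large neutral amino acids with the same partner, had 304, 313 and 347 CPM and 401, 457 and 461 CPM (0.45 ± 0.06, adjusted p = 5.80e-04). Each of the 3 stood above the controls in every MitoQ library. SLC6A9, a glycine importer, had 38.3, 36.2 and 43.2 CPM and 68.3, 72.3 and 74.6 CPM (0.86 ± 0.06, adjusted p = 7.00e-07). SLC1A4, a carrier of alanine, serine and cysteine, had 27.9, 28.1 and 27.7 CPM and 41.8, 40.9 and 40.7 CPM (0.56 ± 0.05, adjusted p = 7.55e-06). SLC7A1, an arginine carrier, had 174, 172 and 191 CPM and 229, 239 and 255 CPM (0.43 ± 0.05, adjusted p = 4.04e-05). These carriers rose without overlap as well.

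Cytosolic tRNA synthetase genes, whose enzymes load amino acids on tRNA, rose in 9 of 20 tested members and fell in 2 (median 0.05), and in 8 and 2 with GC offsets. The falls went to 0 without control 2 or MitoQ 1 and to 1 when any other library was left out. AARS, for alanine, had 59.6, 60.5 and 57.8 CPM and 80.6, 87.4 and 83.0 CPM (0.50 ± 0.05, adjusted p = 5.91e-06). CARS, for cysteine, had 49.7, 51.1 and 47.7 CPM and 61.2, 63.9 and 63.4 CPM (0.35 ± 0.05, adjusted p = 1.47e-04). GARS, for glycine, had 205, 205 and 210.1 CPM and 234, 254 and 244 CPM (0.24 ± 0.04, adjusted p = 4.77e-04). The groups of these 3 did not overlap. In the list of asparagine, proline, arginine and alanine synthesis 6 of 18 rose and 4 fell, 3 and 5 with GC offsets. Without MitoQ 3 the rises went to 3, and without MitoQ 2 the falls to 1. PCK2, a mitochondrial enzyme that makes phosphoenolpyruvate, had 24.3, 23.7 and 26.7 CPM in controls and 53.5, 60.6 and 57.7 CPM in MitoQ libraries (1.19 ± 0.06, adjusted p = 7.00e-08).

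The 13 mRNAs encoded in mitochondrial DNA, which code for core subunits of the respiratory chain and ATP synthase, were mostly lower in the MitoQ libraries, but few passed the test. Their share of all counts was 7.08, 6.62 and 5.67% in controls 1 to 3, and 5.26, 5.15 and 5.17% in MitoQ libraries 1 to 3. The groups do not overlap, and control 3 was the control nearest the MitoQ libraries. Of the 13, 0 rose and 4 fell (median -0.39), 2 with GC offsets. Without control 3 the count of falls was 11 (median -0.48), without control 2 or any 1 MitoQ library it was 2, and without control 1 it was 5. MT-CYB, of complex III, had 4438, 3931 and 3309 CPM in controls and 2959, 2963 and 2994 CPM in MitoQ libraries (-0.39 ± 0.10, adjusted p = 0.0262). MT-ND4, of complex I, had 12368, 10783 and 9261 CPM and 8553, 8730.1 and 8852 CPM (-0.31 ± 0.09, adjusted p = 0.041). Both calls were lost with GC offsets (adjusted p = 0.0791 and adjusted p = 0.156). MT-CO3, of complex IV, had 4889.5, 4257 and 3627 CPM and 3414, 3447 and 3579 CPM (-0.29 ± 0.10, adjusted p = 0.0805). It passed without control 3 (adjusted p = 3.59e-05) and without control 1 (adjusted p = 0.0488). MT-CO2 had 5236, 4485 and 3819 CPM and 4325, 4332 and 4393 CPM with overlapping groups (-0.05 ± 0.11, adjusted p = 0.771), and MT-ND1 overlapped too (-0.07 ± 0.12, adjusted p = 0.724) but passed without control 3 (adjusted p = 0.0259). These sequences recur in part: 50.5% of the 31-base stretches of MT-CO2, 45.0% of MT-CO3 and 21.2% of MT-ND4 occur in annotated transcripts of other genes.

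**Figure D3:**
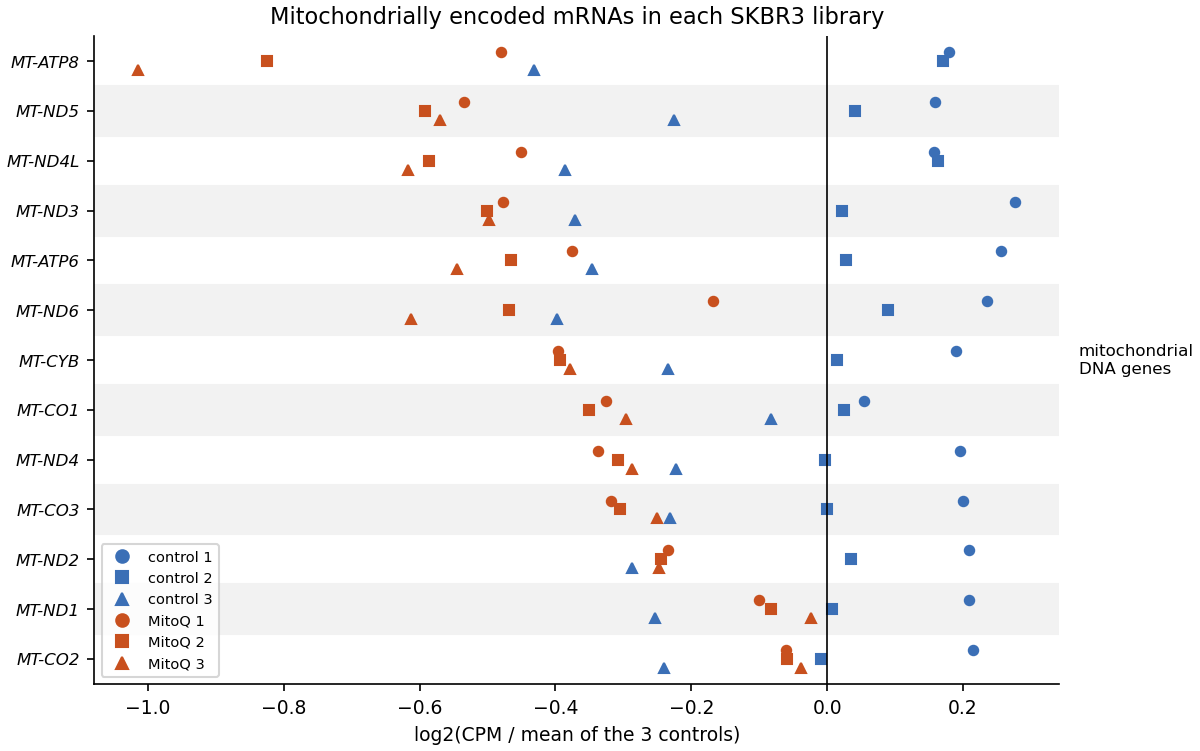
Log2 of CPM over the mean of the 3 controls for the 13 mitochondrially encoded mRNAs in each of the 6 libraries, from MT-ATP8 at the top to MT-CO2 at the bottom. MitoQ points lie below the controls for most of the mRNAs, and control 3 lies between controls 1 and 2 and the MitoQ libraries in 9 of the 13.

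Nuclear genes of oxidative phosphorylation fell by small amounts. In complex I 19 of 37 tested members fell and 0 rose (median -0.19), 20 with GC offsets; 11 fell without MitoQ 1 and 10 without MitoQ 2. In complexes II to V 22 of 42 fell and 0 rose (median -0.21), 20 with GC offsets. With offsets for GC content and transcript length together, 15 fell in complex I (median -0.11). In complexes II to V 17 then fell and 1 rose (median -0.10). NDUFB9, an accessory subunit of complex I, had 1045, 973 and 922 CPM in controls and 703, 699 and 743 CPM in MitoQ libraries (-0.45 ± 0.05, adjusted p = 1.35e-05). NDUFA5, another, had 206, 199 and 186 CPM and 146, 148 and 144 CPM (-0.43 ± 0.04, adjusted p = 9.40e-06). UQCRH, the hinge protein of complex III, had 225, 201 and 194 CPM and 151, 159.6 and 154 CPM (-0.41 ± 0.05, adjusted p = 7.43e-05). None of these overlapped between groups. CYCS (cytochrome c) had 447, 454 and 401 CPM and 320.2, 332 and 338 CPM (-0.39 ± 0.05, adjusted p = 4.19e-05). ATP5MC2, of the rotor ring of ATP synthase, had 60.6, 66.3 and 56.2 CPM and 47.0, 46.8 and 46.4 CPM (-0.38 ± 0.06, adjusted p = 3.36e-04). Of their 31-base stretches 25.1% (UQCRH), 16.8% (ATP5MC2) and 11.6% (CYCS) occur in other genes. Each of the 5 fell in every fit with a library left out and with GC offsets.

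Genes of mitochondrial translation and of mitochondrial DNA expression were called lower more often than higher. Of 78 tested genes of the mitochondrial ribosome 43 fell and 1 rose (median -0.16), and 33 and 0 with GC offsets. The falls went to 28 without control 1, 23 without MitoQ 1 and 19 without MitoQ 2, so the number, though not the direction, rests on single libraries. With GC and length offsets 23 fell and 0 rose (median -0.09). MRPL40 had 24.8, 21.1 and 19.4 CPM and 15.3, 14.1 and 16.8 CPM (-0.50 ± 0.10, adjusted p = 0.00159), and MRPL47, also of the large subunit, had 75.8, 69.2 and 63.2 CPM and 52.5, 50.8 and 50.2 CPM (-0.43 ± 0.06, adjusted p = 1.64e-04). In genes of mitochondrial DNA expression and maintenance 13 of 32 fell and 2 rose, 6 and 0 with GC offsets. Falls there were 8 without control 1, 8 without control 2, 6 without MitoQ 1 and 5 without MitoQ 2. TFAM, which packs and transcribes mitochondrial DNA, had 163, 168 and 161 CPM and 144, 135 and 135 CPM (-0.25 ± 0.04, adjusted p = 4.12e-04), and -0.12 with GC offsets. Mitochondrial chaperones and proteases fell in 8 of 20 and rose in 1, with 3 to 6 falls when a library was left out (5, 4 and 5 without controls 1 to 3, 4, 3 and 6 without MitoQ libraries 1 to 3). HSPD1 (HSP60), the folding chamber of the matrix, had 693, 697 and 669 CPM and 557, 549.9 and 564 CPM (-0.30 ± 0.04, adjusted p = 4.24e-05). HSPE1 (HSP10), its lid, had 163, 135 and 131 CPM and 108, 112 and 111 CPM (-0.37 ± 0.07, adjusted p = 0.0052). HSPD1 and HSPE1 serve as markers of the mitochondrial unfolded protein response, and both fell. They share 25.6% and 15% of their 31-base stretches with other genes.

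Genes of the tricarboxylic acid cycle fell in 13 of 24 tested members and rose in 1 (median -0.16), the same counts as with GC offsets (median -0.13). Without control 3 the rises were 2, and without control 1, control 2, MitoQ 2 or MitoQ 3 they were 0. DLD, a subunit that pyruvate and oxoglutarate dehydrogenase share, had 244, 242 and 242 CPM in controls and 189, 186 and 187 CPM in MitoQ libraries (-0.37 ± 0.03, adjusted p = 5.76e-06). SUCLG1, of succinyl-CoA ligase, had 102, 102 and 100.1 CPM and 85.9, 80.2 and 83.0 CPM (-0.29 ± 0.04, adjusted p = 1.89e-04). FH, fumarase, had 116, 115 and 113 CPM and 95.3, 94.4 and 95.2 CPM (-0.27 ± 0.04, adjusted p = 1.65e-04). Their groups did not overlap. Fatty acid oxidation fell in 13 of 21 and rose in 2 (median -0.20), the same counts as with GC offsets, and 11 or 12 fell when any 1 library was left out. Without control 3 the rises there were 5. ETFDH, which hands electrons from fatty acid oxidation to ubiquinone, had 33.8, 32.6 and 31.1 CPM and 18.3, 16.4 and 18.1 CPM (-0.89 ± 0.07, adjusted p = 1.04e-06). HADHB, of the trifunctional protein, had 116, 116 and 110.4 CPM and 77.6, 81.6 and 84.4 CPM (-0.49 ± 0.04, adjusted p = 4.77e-06). CPT1A, which admits fatty acids to mitochondria, had 317, 307 and 307 CPM and 239, 237 and 233 CPM (-0.39 ± 0.04, adjusted p = 4.63e-06). Every MitoQ library lay below every control for these 3. ACADVL, the dehydrogenase of long chains, fell from 303 ± 14.9 to 236 ± 3.61 CPM (SD, n = 3). PPARA, a nuclear receptor that drives these genes, rose from 15.4 ± 0.597 to 22.6 ± 1.90 CPM (0.55 ± 0.08, adjusted p = 1.66e-04). The list of coenzyme Q synthesis, the natural ubiquinone, had 1 fall and 0 rises among 13 members.

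Glycolysis showed no single direction. Of 19 tested members 4 rose and 5 fell, 2 and 10 with GC offsets, so the split moves with the GC trend. Falls were 3 without MitoQ 1 and 3 without MitoQ 2, and rises 2 without control 1, control 3, MitoQ 2 or MitoQ 3. HK2, the hexokinase of many tumours, had 237, 246 and 246 CPM in controls and 193, 196 and 203 CPM in MitoQ libraries (-0.30 ± 0.04, adjusted p = 5.59e-05). LDHA, which reduces pyruvate to lactate, had 1256, 1196 and 1163 CPM and 1029, 988 and 1061 CPM (-0.23 ± 0.04, adjusted p = 0.00104). MPC1, a subunit of the carrier that lets pyruvate into mitochondria, had 42.1, 36.3 and 35.1 CPM and 31.2, 27.3 and 25.6 CPM (-0.43 ± 0.08, adjusted p = 0.00214). These fell, while SLC16A3, the lactate exporter MCT4, had 176, 183 and 199 CPM and 226, 257 and 255 CPM and rose (0.40 ± 0.06, adjusted p = 3.33e-04, 0.22 with GC offsets). The monocarboxylate transporter SLC16A1 (MCT1) did not pass the test (-0.14 ± 0.11, adjusted p = 0.355). TKT, transketolase, an enzyme of the pentose phosphate pathway, had 523, 509 and 552 CPM and 642, 638 and 681 CPM (0.31 ± 0.04, adjusted p = 1.21e-04), without overlap. Cholesterol synthesis rose in 4 and fell in 4 of 24 members, with falls of 2 without control 3, 1 without MitoQ 1 and 0 without MitoQ 2. HMGCS1 (0.00 ± 0.05, adjusted p = 0.994) and SQLE (0.00 ± 0.04, adjusted p = 0.976) did not pass the test. Fatty acid synthesis rose in 1 and fell in 4 of 18, with 2 falls without control 3, 1 without MitoQ 2 and 2 without MitoQ 3.

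NRF2 targets, the genes of the response to electrophiles and oxidants, rose in 11 of 25 tested members and fell in 2 (median 0.24), and in 12 and 1 with GC offsets (median 0.18). FTH1, the ferritin chain that oxidises and stores iron, had 326, 298 and 294 CPM in controls and 479.9, 514 and 527 CPM in MitoQ libraries (0.73 ± 0.05, adjusted p = 2.15e-07). TXNRD1, cytosolic thioredoxin reductase, had 475, 481 and 494 CPM and 658, 674 and 693 CPM (0.48 ± 0.04, adjusted p = 1.14e-06). NQO1, a quinone reductase, had 141, 140.1 and 134 CPM and 188, 198 and 203 CPM (0.50 ± 0.04, adjusted p = 1.86e-06). All 3 stood above the controls in every MitoQ library. HMOX1, which breaks down heme, had 4.75, 3.86 and 5.07 CPM and 7.51, 6.64 and 8.22 CPM (0.68 ± 0.14, adjusted p = 0.00207). SRXN1, with 84.9% of its 31-base stretches in other genes, did not pass the test (0.00 ± 0.04, adjusted p = 0.991), and FTH1 shares 27.1%. Among antioxidant enzymes 8 of 17 fell and 2 rose, 7 and 2 with GC offsets, and 4 falls without MitoQ 2. CAT, catalase, had 44.4, 48.8 and 47.2 CPM and 33.1, 34.5 and 33.7 CPM (-0.47 ± 0.06, adjusted p = 3.91e-05). PRDX3, the peroxiredoxin of mitochondria, had 187, 171 and 180.4 CPM and 135, 129.8 and 136 CPM (-0.43 ± 0.04, adjusted p = 8.14e-06). TFRC, the transferrin receptor that imports iron, had 1649.7, 1654 and 1647 CPM and 1235, 1183 and 1237 CPM (-0.44 ± 0.04, adjusted p = 3.04e-06). Ferritin thus rose while the importer fell, each without overlap.

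**Figure D4:**
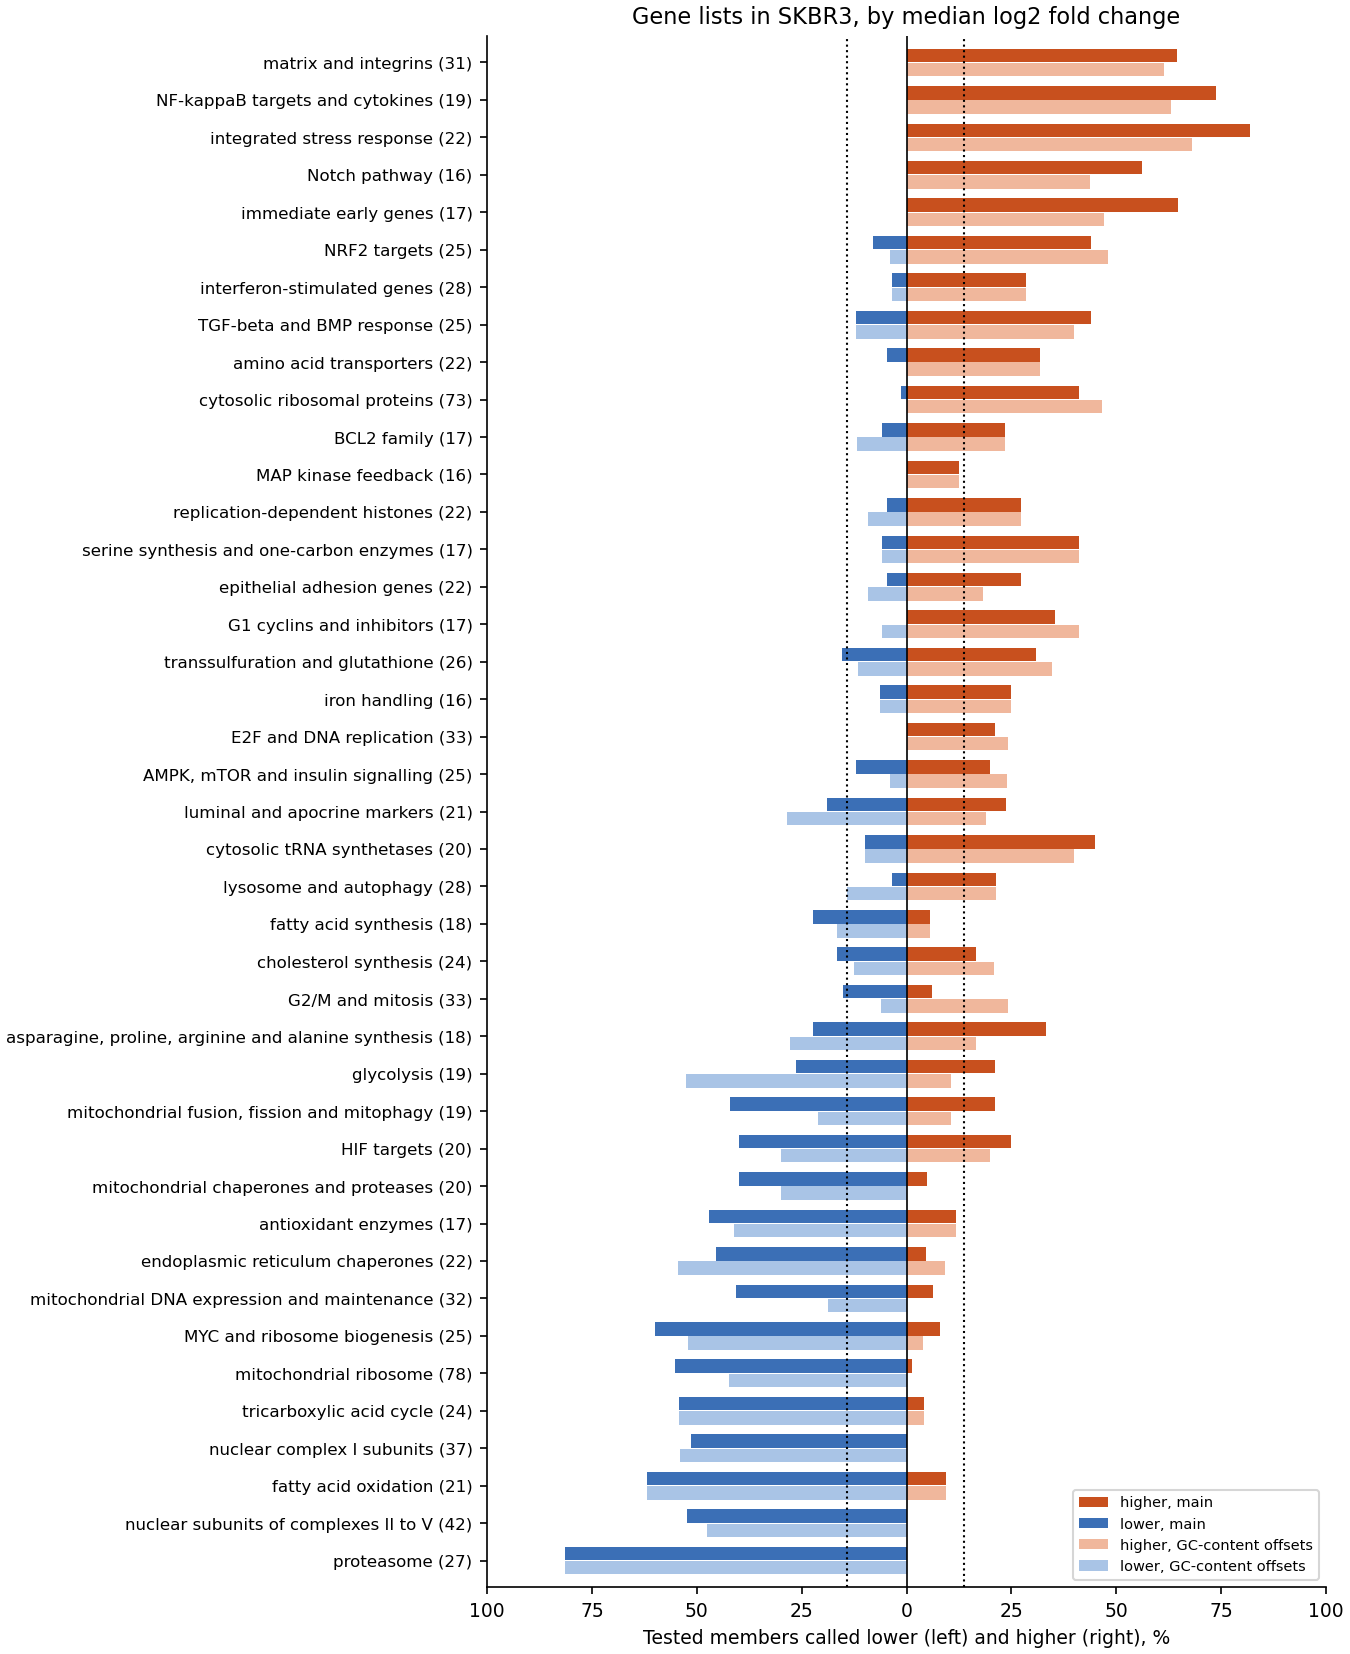
For gene lists with 15 or more tested members, the percent of its tested members called lower (bars to the left) or higher (bars to the right), dark for the fit as described and pale for the fit with GC offsets, ordered by the median change. Dotted lines mark 14.1% lower and 13.8% higher, the shares over all tested genes; the stress response, matrix and NF-kappaB lists reach far past the right line and the proteasome and mitochondrial ribosome lists past the left.

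Genes of the proteasome, which degrades tagged proteins, fell together. Of 27 tested members 22 fell and 0 rose (median -0.24), also with GC offsets (median -0.19), and 19 to 22 fell with any 1 library left out. With GC and length offsets 17 fell and 1 rose (median -0.16). PSMC2, an ATPase of the cap, had 151, 140.3 and 146 CPM in controls and 106, 107 and 111 CPM in MitoQ libraries (-0.44 ± 0.04, adjusted p = 7.25e-06). PSMB7, a catalytic subunit, had 129, 126 and 124 CPM and 100.5, 96.5 and 102 CPM (-0.34 ± 0.04, adjusted p = 3.49e-05). PSMB6, another, had 66.7, 63.2 and 66.1 CPM and 48.6, 53.2 and 55.0 CPM (-0.32 ± 0.05, adjusted p = 4.98e-04). The groups of these did not overlap. Endoplasmic reticulum chaperones fell in 10 of 22 and rose in 1 (median -0.12), 12 and 2 with GC offsets, and 6 fell without MitoQ 2. Cytosolic heat shock chaperones fell in 5 of 14 and rose in 2, with 3 falls without control 1, control 2 or any 1 MitoQ library. HSPB1 (HSP27), a small heat shock protein, went against its list, with 195, 171 and 197 CPM and 293, 322 and 342 CPM (0.76 ± 0.07, adjusted p = 4.84e-05).

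Genes of cytosolic ribosomal proteins and of ribosome biogenesis moved apart. Ribosomal protein genes rose in 30 of 73 tested members and fell in 1 (median 0.12), 34 and 0 with GC offsets, and in 50 without control 1. With GC and length offsets 53 rose and 0 fell (median 0.20). RPL13 had 425, 463 and 482 CPM in controls and 580.1, 622 and 664 CPM in MitoQ libraries (0.45 ± 0.06, adjusted p = 1.31e-04), and RPLP1, of the stalk, had 613, 620.4 and 635 CPM and 734, 766 and 824 CPM (0.31 ± 0.04, adjusted p = 1.39e-04). MYC and ribosome biogenesis genes fell in 15 of 25 and rose in 2 (median -0.15), 13 and 1 with GC offsets. Falls were 9 without MitoQ 1, 7 without MitoQ 2 and 9 without MitoQ 3. NCL, nucleolin, had 1004, 946 and 902 CPM and 819, 799.8 and 806 CPM (-0.23 ± 0.04, adjusted p = 0.00101). NPM1, nucleophosmin, had 1032, 1008 and 959.8 CPM and 860.3, 848 and 873 CPM (-0.22 ± 0.04, adjusted p = 9.78e-04). Processed copies of such genes are common, and 23.3% of the 31-base stretches of NPM1 and 10.7% of RPLP1 occur in other transcripts.

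Cell cycle genes moved little in SKBR3. Of 33 genes of G2/M and mitosis 2 rose and 5 fell (median -0.03), and 8 rose and 2 fell with GC offsets, so the balance turns with the GC trend; without control 3 the rises were 4. AURKA (-0.10 ± 0.03, adjusted p = 0.0524) and MKI67 (0.00 ± 0.04, adjusted p = 1) did not pass the test. E2F and DNA replication genes rose in 7 of 33 and fell in 0, 8 and 0 with GC offsets. G1 cyclins and inhibitors rose in 6 of 17 and fell in 0. CDK6, a G1 kinase, had 75.6, 84.8 and 77.6 CPM in controls and 103, 104 and 97.7 CPM in MitoQ libraries (0.36 ± 0.05, adjusted p = 1.16e-04). CCND1, cyclin D1, had 504, 494 and 533 CPM and 562, 583 and 617 CPM (0.20 ± 0.04, adjusted p = 0.00306). Both groups stood apart in these genes. Replication-dependent histones rose in 6 of 22 and fell in 1, with 11 rises without control 3, 10 without MitoQ 1 and 3 without control 2, MitoQ 2 or MitoQ 3. HIST1H2BC had 191, 185 and 209.7 CPM and 238, 253 and 268 CPM (0.37 ± 0.05, adjusted p = 2.37e-04).

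In the BCL2 family, which governs cell death at mitochondria, 4 of 17 rose and 1 fell, and 7 rose without control 3. PMAIP1 (NOXA), a BH3 protein that ATF4 can induce, had 1.15, 1.15 and 1.11 CPM in controls and 2.76, 2.91 and 3.16 CPM in MitoQ libraries (1.37 ± 0.19, adjusted p = 1.64e-04). BMF, another BH3 protein, had 9.66, 10.4 and 10.8 CPM and 17.3, 18.3 and 15.9 CPM (0.74 ± 0.09, adjusted p = 4.25e-05). CDKN1A, the p21 inhibitor of cyclin kinases, had 7.48, 7.37 and 10.1 CPM and 12.5, 14.0 and 15.5 CPM (0.72 ± 0.13, adjusted p = 9.65e-04). The MitoQ libraries of these 3 stood above the controls.

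Among signalling genes, NF-kappaB targets and cytokines rose in 14 of 19 tested members and fell in 0 (median 0.48), 12 and 0 with GC offsets (median 0.39), while CXCL1, CXCL2, CXCL3, CXCL8, IL6, IL1A and IL1B were too low to be tested. CSF1, macrophage colony-stimulating factor, had 2.02, 1.89 and 1.83 CPM in controls and 4.07, 6.06 and 4.79 CPM in MitoQ libraries (1.39 ± 0.18, adjusted p = 8.95e-05). ICAM1, an adhesion receptor for leukocytes, had 1.31, 1.56 and 1.90 CPM and 3.78, 3.44 and 3.90 CPM (1.19 ± 0.18, adjusted p = 3.43e-04). NFKBIA, the inhibitor that NF-kappaB induces against itself, had 95.9, 88.1 and 99.2 CPM and 127, 129.8 and 137 CPM (0.47 ± 0.05, adjusted p = 1.26e-05). Each stood apart, though CSF1 and ICAM1 at a few CPM. TNFAIP3 (A20), another inhibitor, had 6.44, 7.24 and 5.75 CPM and 9.25, 9.79 and 11.1 CPM (0.65 ± 0.12, adjusted p = 0.0011). The subunits RELB (0.53 ± 0.09, adjusted p = 5.67e-04) and NFKB2 (0.47 ± 0.08, adjusted p = 7.08e-04) rose, by 0.30 and 0.30 with GC offsets. CSF1R, the receptor of CSF1, which some breast cancer cells express, had 36.6, 38.5 and 40.9 CPM and 63.9, 68.3 and 72.6 CPM (0.81 ± 0.06, adjusted p = 6.69e-07).

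Leukocyte markers lay higher beside these genes. Of 17 markers on that list, which also holds the red cell globins HBB and HBA1, 5 were tested and 3 rose (ITGAM, CSF1R, CD68). ITGAM had 91 counts over the 6 libraries, and CD68 shares 77.3% of its 31-base stretches with other genes. CD2, MS4A1, NKG7 and HBB had no count in the 6 libraries. The summed level of the list ran from 48.64 to 52.81 CPM in controls and from 78.15 to 89.29 CPM in MitoQ libraries, most of it CSF1R. The other 16 summed to 11.89 to 12.58 CPM and 14.24 to 18.54 CPM. PTPRC, the pan-leukocyte marker, had 15 counts over all 6 libraries. Fibroblast and endothelial markers summed to 76.48 to 86.68 CPM in controls and 86.82 to 94.51 CPM in MitoQ libraries, with 8 of 17 tested and 2 higher (CDH5, ENG), and LUM had 0 counts. With GC offsets 1 of these 2 was called, and without control 1, control 2, MitoQ 2 or MitoQ 3 it was 0. The 15 markers other than CDH5 and ENG summed to 13.92 to 17.52 CPM in controls and 14.86 to 16.68 CPM in MitoQ libraries, which overlap. The part of such cells in the results was not tested.

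Immediate early genes rose in 11 of 17 and fell in 0 (median 0.29), 8 and 0 with GC offsets. JUN, of the AP-1 factor, had 19.1, 20.8 and 23.7 CPM in controls and 33.8, 37.5 and 36.1 CPM in MitoQ libraries (0.75 ± 0.08, adjusted p = 1.43e-05). KLF4, a zinc finger factor of epithelia, had 30.4, 27.5 and 34.1 CPM and 42.2, 43.9 and 43.6 CPM (0.48 ± 0.07, adjusted p = 1.89e-04). FOSL2, a partner of JUN, had 96.5, 94.4 and 105 CPM and 122, 124 and 131 CPM (0.34 ± 0.05, adjusted p = 1.67e-04). Those 3 did not overlap, while FOS (0.16 ± 0.24, adjusted p = 0.684) and EGR1 (-0.10 ± 0.11, adjusted p = 0.549) did not pass the test. Interferon-stimulated genes rose in 8 of 28 and fell in 1 (median 0.19), also with GC offsets, and 5 rose without MitoQ 1 or MitoQ 2. OAS3, a sensor of double-stranded RNA, had 14.4, 14.8 and 15.6 CPM and 23.6, 25.1 and 24.7 CPM (0.71 ± 0.07, adjusted p = 8.97e-06). IRF1, a transcription factor of the interferon response, had 17.6, 20.1 and 23.7 CPM and 30.5, 36.5 and 33.6 CPM (0.70 ± 0.10, adjusted p = 6.93e-04). PARP14 had 2.84, 4.26 and 3.05 CPM and 6.35, 6.89 and 6.32 CPM (0.97 ± 0.15, adjusted p = 3.84e-04). Their MitoQ libraries lay above the controls.

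The Notch pathway rose in 9 of 16 tested members and fell in 0 (median 0.38), 7 and 0 with GC offsets (median 0.22), and the list has a high GC content (median 61.2%). Among ligands, JAG2 had 4.69, 4.80 and 5.96 CPM in controls and 11.7, 12.2 and 12.5 CPM in MitoQ libraries, JAG1 had 9.88, 9.88 and 9.63 CPM and 13.2, 13.7 and 12.7 CPM (0.44 ± 0.09, adjusted p = 0.00187), and DLL4 had 2.07, 1.69 and 1.98 CPM and 3.49, 3.52 and 3.42 CPM (0.85 ± 0.17, adjusted p = 0.00179). Groups of all 3 ligands stood apart. Among receptors, NOTCH3 had 105, 111 and 128 CPM and 173, 180.2 and 187 CPM (0.65 ± 0.07, adjusted p = 7.36e-05), which was 0.46 with GC offsets, and NOTCH1 had 74.6, 83.4 and 93.0 CPM and 106, 107 and 108 CPM (0.35 ± 0.06, adjusted p = 0.00218), 0.17 with them. Of the targets, NRARP, a feedback inhibitor, had 3.49, 2.77 and 4.06 CPM and 6.69, 6.38 and 6.59 CPM (0.90 ± 0.14, adjusted p = 4.50e-04), whereas HES1 had 48.4, 41.1 and 39.1 CPM and 41.0, 39.8 and 41.7 CPM (-0.07 ± 0.07, adjusted p = 0.535). The 5 ligand and receptor genes named rose, while these targets differed from each other.

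Matrix and integrin genes rose in 20 of 31 tested members and fell in 0 (median 0.52), 19 and 0 with GC offsets (median 0.41), and in 15 to 22 with any 1 library left out. PLAU, urokinase, had 5.24, 4.40 and 5.53 CPM in controls and 11.1, 9.54 and 11.1 CPM in MitoQ libraries (1.05 ± 0.12, adjusted p = 3.35e-05). LAMB3, a chain of an epithelial laminin, had 13.3, 14.8 and 15.8 CPM and 23.4, 22.8 and 25.2 CPM (0.69 ± 0.08, adjusted p = 3.04e-05). ITGB4 and ITGA3, integrin chains that bind it, had 46.7, 41.6 and 53.3 CPM and 78.5, 84.4 and 82.8 CPM (0.78 ± 0.07, adjusted p = 2.56e-05), and 31.8, 34.4 and 35.9 CPM and 51.4, 51.5 and 53.8 CPM (0.61 ± 0.06, adjusted p = 5.91e-06). The laminin chain and both integrin chains thus rose in the same libraries. ITGA5, the fibronectin receptor chain, had 10.8, 8.79 and 10.1 CPM and 14.9, 15.4 and 15.2 CPM (0.61 ± 0.09, adjusted p = 2.55e-04). ITGB6, a chain of an integrin that frees latent TGF-beta, had 45.5, 46.9 and 45.0 CPM and 61.6, 69.4 and 68.9 CPM (0.54 ± 0.05, adjusted p = 1.08e-05). ITGB1, the partner of ITGA3 and ITGA5, did not pass the test (0.06 ± 0.04, adjusted p = 0.256) but did with GC offsets (0.17, adjusted p = 0.00132). CD44, the hyaluronan receptor, had 17.7, 15.7 and 17.5 CPM and 35.1, 36.6 and 40.04 CPM (1.12 ± 0.07, adjusted p = 2.01e-07).

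TGF-beta and BMP response genes rose in 11 of 25 and fell in 3 (median 0.17), 10 and 3 with GC offsets, with 6 rises without control 1 and 6 without MitoQ 2. ID3, a BMP target, had 95.6, 93.2 and 105 CPM in controls and 138, 161 and 169 CPM in MitoQ libraries (0.67 ± 0.07, adjusted p = 2.51e-04). SMAD3, a signal carrier, had 23.0, 23.5 and 25.3 CPM and 33.9, 32.9 and 33.6 CPM (0.47 ± 0.06, adjusted p = 7.28e-05). The receptor TGFBR1 had 476, 496 and 478 CPM and 396, 400.3 and 402 CPM and fell (-0.28 ± 0.04, adjusted p = 7.76e-05). In each of the 3 genes the groups stood apart.

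Genes that mark the line itself moved in part. ERBB2 had 5006, 5223 and 5825 CPM in controls and 5536, 5665 and 5798 CPM in MitoQ libraries, with overlapping groups (0.08 ± 0.05, adjusted p = 0.273), although it passed the test without control 3 (adjusted p = 0.00899). Of the 13 tested genes of its amplified region 2 rose and 1 fell, 0 and 1 with GC offsets. Without control 3 it was 5 and 2, and the rises were 1 without control 2, MitoQ 2 or MitoQ 3, and the falls 0 without control 1, control 2 or MitoQ 2. Luminal and apocrine markers rose in 5 of 21 and fell in 4, with 3 rises without MitoQ 3 and 2 falls without MitoQ 2. AGR2, a luminal secretory protein, had 104, 95.3 and 99.1 CPM and 79.5, 78.1 and 85.4 CPM (-0.30 ± 0.05, adjusted p = 4.05e-04). INSR and IRS1, the insulin receptor and its adaptor, had 20.4, 20.8 and 21.5 CPM and 30.3, 31.2 and 33.0 CPM (0.59 ± 0.06, adjusted p = 1.66e-05), and 15.4, 16.8 and 15.2 CPM and 22.3, 22.2 and 23.5 CPM (0.53 ± 0.07, adjusted p = 1.19e-04). Targets of hypoxia-inducible factor were mixed, with 5 of 20 higher and 8 lower, 4 and 6 with GC offsets, and with 5 falls without control 2, 4 without MitoQ 1 and 4 without MitoQ 2. NDRG1, which hypoxia induces, had 339, 360.3 and 349.5 CPM and 259, 261 and 262 CPM (-0.42 ± 0.04, adjusted p = 3.14e-06). ANGPTL4, a lipase inhibitor under the same factor, had 2.89, 2.77 and 3.70 CPM and 1.16, 1.47 and 1.63 CPM (-1.15 ± 0.20, adjusted p = 8.38e-04).

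Other lists had few called members or were split. Mitochondrial fusion, fission and mitophagy genes rose in 4 of 19 and fell in 8, 2 and 4 with GC offsets, with 2 rises without control 1, MitoQ 2 or MitoQ 3 and 5 falls without MitoQ 2. Genes that govern the entry and exit of pyruvate and lactate rose in 2 of 14 and fell in 6, 1 and 4 with GC offsets, with 1 rise without control 1, control 2, MitoQ 2 or MitoQ 3. Iron handling rose in 4 of 16 and fell in 1. Lysosome and autophagy genes rose in 6 of 28 and fell in 1, 6 and 4 with GC offsets. AMPK, mTOR and insulin signalling rose in 5 of 25 and fell in 3, 6 and 1 with GC offsets. Feedback genes of MAP kinases rose in 2 of 16 and fell in 0, with 1 rise without control 2, MitoQ 2 or MitoQ 3. In the EGF receptor family and its ligands 1 of 14 rose and 1 fell, with 4 rises without control 3. Epithelial adhesion genes rose in 6 of 22 and fell in 1, 4 and 2 with GC offsets, with 3 rises without MitoQ 3, while mesenchymal and basal markers rose in 4 of 11 and fell in 1. SRC family and adhesion kinases rose in 2 of 9 and fell in 1, with 4 and 2 without control 3. Markers used for breast cancer stem cells rose in 4 of 14 and fell in 1, 6 and 0 with GC offsets. Metallothioneins rose in 1 of 4 and fell in 1.

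In some lists that moved mainly one way, the few members called the other way depended on single libraries. In others, such as the TGF-beta and BMP list, their number did not. Rises among mitochondrial ribosome genes were 4 without control 3 and 0 without control 1, control 2, MitoQ 2 or MitoQ 3. In mitochondrial DNA expression they were 4 without control 3 and 0 without control 1, MitoQ 2 or MitoQ 3. In mitochondrial chaperones they were 3, and in fatty acid synthesis 3, without control 3, and in the latter 0 when any other library was left out. Falls among NRF2 targets were 0 without MitoQ 2 and 1 without control 1, control 2, MitoQ 1 or MitoQ 3. Rises of endoplasmic reticulum chaperones were 2 without control 3 or MitoQ 1 and 0 without control 1, MitoQ 2 or MitoQ 3. Those of MYC and ribosome biogenesis genes were 1 without control 1, control 2, MitoQ 2 or MitoQ 3, and those of cytosolic chaperones 1 without control 1, control 2, MitoQ 1 or MitoQ 3.

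Only 16 genes fell by at least 2-fold, against 121 that rose as much (12 and 100 with GC offsets). Among the falls with the smallest p were PEG10, an imprinted gene derived from a retrotransposon, with 168, 152 and 160.3 CPM in controls and 95.6, 86.0 and 96.9 CPM in MitoQ libraries (-0.79 ± 0.05, adjusted p = 2.15e-07), and KRT4, a keratin of moist epithelia, with 167, 156 and 166 CPM and 107, 107 and 107 CPM (-0.61 ± 0.04, adjusted p = 2.15e-07). EID1, an inhibitor of the acetyltransferase p300, had 49.9, 53.3 and 54.0 CPM and 31.4, 30.0 and 32.2 CPM (-0.75 ± 0.06, adjusted p = 7.00e-07). ACSL3, which activates fatty acids at lipid droplets, had 229, 225 and 220.0 CPM and 163, 162 and 168 CPM (-0.45 ± 0.04, adjusted p = 1.64e-06). For these 4 every MitoQ library lay below every control, but their choice by smallest p favours that. PEG10 (44.8% GC) and KRT4 (55.6% GC) changed by -0.73 and -0.66 under GC offsets.

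The change in SKBR3 was then set against that in MDA-MB-231, a triple-negative line given the same dose and time (5 libraries per group, passage 25), through the interaction term over all 16 libraries. It differed in 5823 of 17094 genes, 34.1%. Line and passage cannot be told apart, and the GC trend was present in SKBR3 (Spearman rho of change with GC content 0.527 across 10391 genes) and weak in MDA-MB-231 (0.047 across 10191 genes, which are not independent). In the stress response 21 of 26 members had the lower change in SKBR3 and 0 the higher. NUPR1 differed by -2.52 ± 0.12 (adjusted p = 3.85e-14), with 0.73 in SKBR3 and 3.29 ± 0.08 in MDA-MB-231. ASNS differed by -1.74 ± 0.07 (adjusted p = 7.93e-15), with 1.16 and 2.94 ± 0.05. CTH, which did not pass the test in SKBR3, changed by 3.03 ± 0.06 in MDA-MB-231 (difference -3.10 ± 0.12, adjusted p = 4.71e-15). For PHGDH the difference was 0.20 ± 0.09 and did not pass (adjusted p = 0.0957), which does not show that the lines respond alike. SLC7A1 (-0.02 ± 0.08, adjusted p = 0.889) did not pass either. MTHFD2 shows the gap between the lines, with 0.12 in SKBR3 and 1.74 ± 0.04 in MDA-MB-231 (difference between lines, adjusted p = 2.11e-15).

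Other lists had the higher change in SKBR3. That held for 22 of 24 histone genes, 32 of 33 mitotic genes, 22 of 25 genes of cholesterol synthesis and 10 of 13 mitochondrially encoded mRNAs, and no member of the 4 lists differed the other way. MT-CO3 changed by -0.29 in SKBR3 and by -2.86 ± 0.08 in MDA-MB-231 (difference 2.61 ± 0.14, adjusted p = 9.37e-11). MT-CO2 changed by -0.05 and -2.22 ± 0.08 (difference between lines, adjusted p = 1.21e-09). HIST1H2BC rose in SKBR3 and changed by -1.05 ± 0.06 in MDA-MB-231 (difference between lines, adjusted p = 2.71e-11). LDHA changed by -0.23 and -1.21 ± 0.04 (difference between lines, adjusted p = 1.11e-11). A group of genes rose in SKBR3 and had smaller changes in the other line. The difference between lines was 1.12 ± 0.15 for JAG2 (adjusted p = 2.22e-06), 0.91 ± 0.08 for CD44 (adjusted p = 1.70e-09), 1.010 ± 0.16 for PLAU (adjusted p = 3.78e-05) and 1.41 ± 0.18 for CSF1 (adjusted p = 1.89e-06). Their changes in MDA-MB-231 were 0.13 ± 0.08, 0.25 ± 0.04, 0.06 ± 0.07 and 0.03 ± 0.06. HSPB1 and TKT moved in opposite directions in the 2 lines. HSPB1 changed by 0.76 in SKBR3 and -0.71 ± 0.11 in MDA-MB-231 (difference between lines, adjusted p = 1.23e-05). TKT changed by 0.31 and -0.57 ± 0.05 (difference between lines, adjusted p = 1.18e-09). TFRC fell in SKBR3 and changed by 0.07 ± 0.04 in MDA-MB-231 (difference between lines, adjusted p = 1.43e-06). The proteasome differed in 12 of 27 members, each with the higher change in SKBR3, and in 0 the other way. That share is not far above the 34.1% of all genes that differed.

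**Figure D5:**
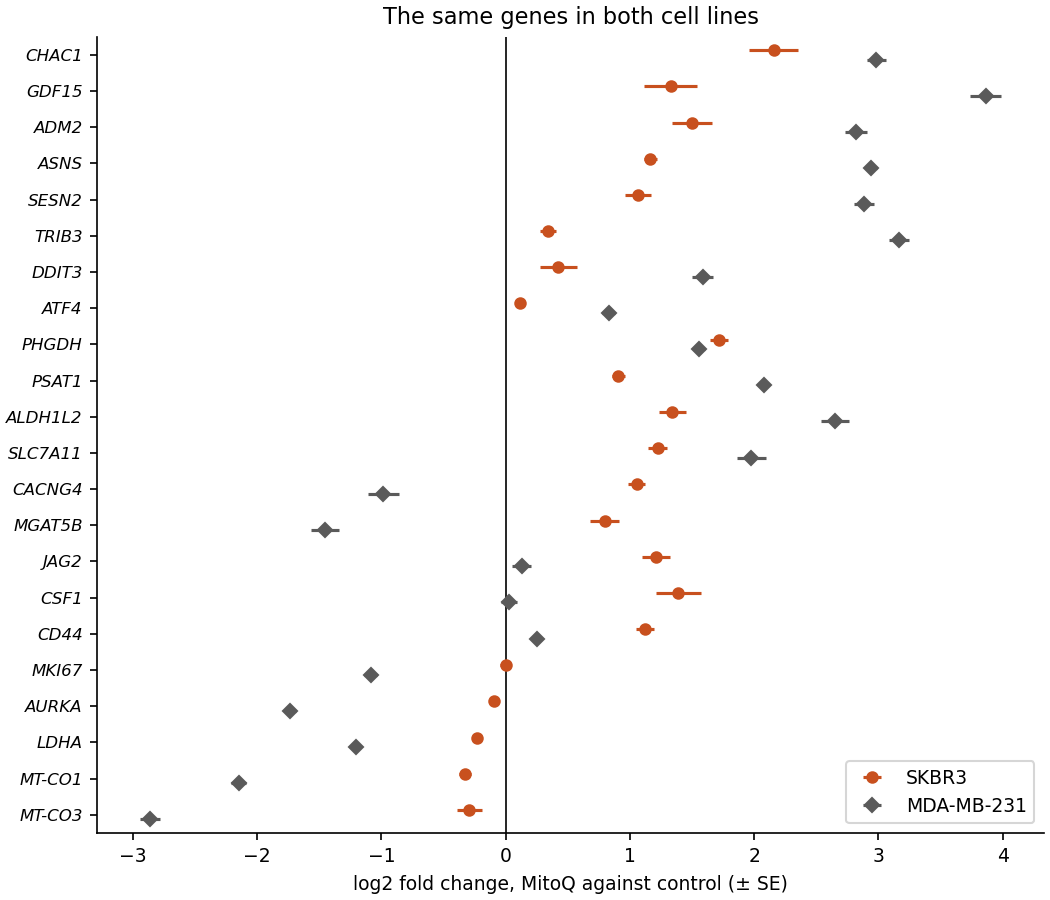
Log2 fold change, MitoQ minus control, ± SE for 22 genes in SKBR3 (3 libraries per group) and MDA-MB-231 (5 per group). Stress genes such as ASNS and TRIB3 lie farther right in MDA-MB-231, CD44 and JAG2 farther right in SKBR3, and MT-CO3 farther left in MDA-MB-231.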

How the data were processed

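RNA of 6 SKBR3 libraries was analysed, with 10 MDA-MB-231 libraries for the difference between lines. The values deposited by the authors are estimated counts per gene, whole numbers in the table, made with Salmon and edgeR on GRCh38 per the submitters' processing notes; versions, annotation, strand and any rounding are not given in the sources used here. Per the labels, RNA came from a NucleoSpin kit with DNase. Of 35106 gene rows 35003 matched GENCODE 29 (GRCh38), which gave types, coordinates and transcripts, and 103 did not.

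SKBR3 was fitted alone in edgeR 4.0.16 (R 4.3.3), with the filterByExpr filter, TMM factors and a robust, two-sided quasi-likelihood F test (Benjamini-Hochberg, threshold 0.05). SEs were taken as the size of the log2 fold change divided by the root of F. The difference between lines is the interaction over 16 libraries, so it need not equal the difference of the fits within lines. GC offsets are a loess curve (span 0.3) of each library's log2 deviation on transcript GC content, known for 99.7% of tested genes.

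The comparison, the 56 gene lists and the rules were chosen with earlier results of these data known. Named genes are the 15 largest rises and falls (protein-coding, at least 5 CPM, no overlap), 6 smallest p per direction, up to 5 called members of each list and those needed to say what did not pass, a panel of 40, 8 per direction for the interaction and 6 per direction for control 3; the text takes its examples from these after their values were seen, and adds 39 others that were also chosen after their values were seen (ACADVL, CEBPG, CTH, EGR1, FOS, FOSL2, GCLC, GCLM, GLDC, HES1, HMGCS1, IRF1, ITGA3, ITGA5, ITGB1, ITGB4, ITGB6, JAG1, JDP2, LAMB3, MT-CO2, MT-ND1, MTHFD1L, MTHFD2, NFKB2, NFKBIA, NOTCH1, NPM1, NUPR1, PPP1R15A, PSPH, RELB, SLC3A2, SLC7A1, SQLE, SRXN1, TGFBR1, TXNRD1 and VEGFA). Lists are described by counts and medians, with no list test; some genes and lists are not reported here. Shared sequence is the share of a gene's 31-base stretches found in other genes' transcripts.

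Alternatives were RLE, upper-quartile and no scaling factors, DESeq2 1.42.0, limma 3.58.1 voom, other filters and thresholds, a fit without mitochondrial genes, a single fit of both lines, a replicate block, and fits that omit 1 library each. After the data were seen, GC offsets, alone and with length, were added. The scripts were tested on simulated data. A replicate number shared by 2 groups was not taken as a pair in the main fit, since the labels state no pairing.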

Additional observations from a re-analysis of the deposited data

Results flagged for a closer look

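For 16 genes called in SKBR3 the change differed most between the lines by the interaction term of edgeR (SKBR3 minus MDA-MB-231, log2, with adjusted p). All 16 were also called in that term with GC offsets. Among those with the higher value in SKBR3 were 3 replication-dependent histones. HIST1H2BM went from 64.9 ± 5.92 to 76.1 ± 3.93 CPM (SD, n = 3) in SKBR3 and changed by -2.77 ± 0.07 in MDA-MB-231, a difference of 3.05 (adjusted p = 9.55e-16). HIST1H2BB went from 58.6 ± 4.72 to 68.0 ± 2.18 CPM and changed by -2.47 ± 0.06 there, a difference of 2.73 (adjusted p = 5.37e-15). The SKBR3 call was lost for HIST1H2BM without MitoQ 2 (adjusted p = 0.0601) or MitoQ 3 (adjusted p = 0.0571), and for HIST1H2BB without MitoQ 2 (adjusted p = 0.0532). HIST1H2BF differed by 3.28 (adjusted p = 0.00605), but had 13 counts in the 5 controls and 1 in the 5 MitoQ libraries of MDA-MB-231, so the size of that difference cannot be read.

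CACNG4, a calcium channel subunit gene, went from 28.0 ± 2.11 to 58.2 ± 3.68 CPM in SKBR3 and changed by -0.98 ± 0.13 in MDA-MB-231, a difference of 2.08 (adjusted p = 2.51e-11). MGAT5B, a glycosyltransferase gene, changed by 0.80 and -1.45 ± 0.11, a difference of 2.29 (adjusted p = 9.12e-10). NEURL1B, a ubiquitin ligase of Notch ligands, changed by 0.49 and -1.60 ± 0.07, a difference of 2.14 (adjusted p = 7.78e-14). PSG4, a pregnancy glycoprotein gene with 32.5% of its 31-base stretches shared with other transcripts, differed by 2.05 (adjusted p = 3.60e-07). MAP2K6, a p38 kinase kinase, fell in both lines, by -0.34 and -2.38 ± 0.19, with a difference of 2.08 (adjusted p = 5.02e-08).

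The other 8 had the lower value in SKBR3. TRIB3 changed by 0.34 in SKBR3 and 3.17 ± 0.08 in MDA-MB-231, a difference of -2.78 (adjusted p = 4.71e-12). ASS1, argininosuccinate synthase, changed by 0.13 and 3.05 ± 0.08, a difference of -2.88 (adjusted p = 5.37e-15), and its SKBR3 call was lost without MitoQ 3 (adjusted p = 0.0526) and with GC offsets (adjusted p = 0.334). CYP1B1, an aryl hydrocarbon receptor target, changed by 0.35 and 3.25 ± 0.07, a difference of -2.84 (adjusted p = 2.42e-15). UNC5B, a netrin receptor gene, changed by 0.90 and 3.56 ± 0.15, a difference of -2.60 (adjusted p = 1.20e-09). S100P rose from 90.5 ± 8.37 to 148 ± 17.2 CPM in SKBR3 and differed by -4.92 (adjusted p = 7.24e-09), with MDA-MB-231 controls near the floor. The other 3 were hardly counted in MDA-MB-231, from 5 control to 5 MitoQ libraries: FAM25A (-4.62, adjusted p = 0.00229) from 0 to 9 counts, TRIM29 (-3.66, adjusted p = 1.57e-04) from 1 to 28, and SEMA4A (-2.81, adjusted p = 1.43e-04) from 10 to 100.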

How the results depend on the processing

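With RLE, upper-quartile or no scaling factors, voom, DESeq2, other filters, mitochondrial genes left out or GC offsets, the counts of called genes stayed within 1.5 times of 4202 (2076 higher, 2126 lower), from 3169 of 12729 (DESeq2) to 4740 (voom). GC and length offsets called 3290. At an adjusted p of 0.01 it was 2436 (1236 higher, 1200 lower), against a 1.2-fold change 472 (376 and 96), and in a single fit over 16 libraries 2788 (1069 lower). Leaving out 1 library gave 2565 to 4547 calls, 1458 to 2576 higher and 1107 to 1971 lower, the lowest without MitoQ 2 and the highest without control 3. The interaction called 5073 to 6322 genes under all alternatives, against 5823. Of 344 named genes 49 lost their call with GC offsets, 25 (of 335) in DESeq2, 55 without MitoQ 2, 11 without control 3 and 185 against 1.2-fold. ENG, a member of the endothelial list, went from 0.18 (adjusted p = 0.0363) to -0.00397 with GC offsets (adjusted p = 0.967). The cause of these moves was not tested.

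With the replicate number as a block 4758 genes were called, 2348 higher and 2410 lower, and the interaction called 5416. The labels do not say whether equal numbers pair samples, and with 3 libraries per group these values cannot decide it. Same-numbered libraries had deviations correlated at 0.0388, -0.00687 and 0.0764. Controls 1 and 3 correlated best with their own number, and control 2 with MitoQ 1 (0.0933).

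Limits: 3 libraries per group at 1 dose and time, of unstated origin, in which the GC tilt and the treatment separate the same libraries. Levels under 0.108 to 0.204 CPM cannot be told from 0 counts in a library.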
